A study of Mus musculus with 12 samples.

Results

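*Mylk3*, *Perm1*, *Sbk3* and *Myl4* are 4 genes best known from striated muscle that were read here in the hippocampus of *Dek* knockout mice. They were taken from a table of 26409 genes, of which 18197 had a mean of at least 0.1 TPM (a transcript level scaled to transcript length and to the size of the library) and were tested, and all 4 were among those tested. The 4 genes were chosen because they stood higher in knockout than in control hippocampus in these same libraries, so their difference between genotypes is given as a description, without a p-value. How many of them pass the threshold used for all genes is stated beside the share of all genes, and nothing is read from it.

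Bulk RNA sequencing covered microdissected hippocampus from 3 female wild-type (WT), 3 male WT, 3 female *Dek* cKO and 3 male *Dek* cKO mice, 1 library per mouse. In this study cKO means constitutive knockout. A floxed *Dek* allele, with loxP sites around exons 3 and 4, was recombined by CMV-Cre on the C57Bl/6 background, the Cre transgene was then bred out, and mice carrying the deletion in the germ line were kept through matings of heterozygotes, so every cell type of a cKO animal lacked the intact gene and no Cre was left in the colony. The mice used for sequencing were 6 to 12 months old and, per the labels, were killed after their last behavioral assay. In their deposited names, the 3 female WT libraries carry the prefix C57 and the other 9 the prefix CMV, so that among WT libraries the prefix cannot be told apart from sex.

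The targeted gene separated the genotypes in every library, with *Dek* at 48.3 ± 2.58 TPM in WT and 7.23 ± 1.32 TPM in cKO (SD, n = 6 each, limma log2 fold change −2.74, SE 0.10, adjusted p = 1.17e-08). Deposited values summed to between 825750 and 845553 TPM per library, with 18104 to 18719 genes above 0. TPM keeps no read count, so the depth behind each value is unknown. Y-linked transcripts went against the sex label in 2 libraries: female cKO 3 carried them at a male level and male cKO 1 did not. Groups below follow the labels, and the interaction of sex and genotype is also given without those 2 libraries. P-values measure the spread between these 12 libraries.

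Striated muscle contracts when myosin heads pull on actin, and each head carries an essential and a regulatory light chain that tune its motion. *Myl4* encodes an essential light chain of atrial and embryonic muscle. *Mylk3* encodes the cardiac myosin light chain kinase, which phosphorylates the regulatory light chain of the heart. *Perm1* encodes a muscle regulator induced by the coactivators *Ppargc1a* and *Ppargc1b* together with estrogen-related receptors, and it promotes mitochondrial and oxidative gene programs. *Sbk3* encodes a protein kinase of the SH3-domain binding kinase family. Hippocampus holds no striated muscle, and its contractile cells are the smooth muscle cells and pericytes of its vessels.

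Promoter windows of *Perm1*, *Sbk3* and *Myl4* are shown. Those of *Mylk3*, which held no match to the motifs searched, are not shown. All 4 genes matched the RefSeq table for GRCm38.p6, which gives 250 bases before and 50 bases after each start, on the strand of the gene. *Mylk3* has 2 such windows and each of the others 1. The starts are those of RefSeq, and for *Mylk3*, *Perm1* and *Sbk3* they lie inside the GENCODE spans given below. Both *Mylk3* windows lie wholly inside its GENCODE span, so the GENCODE start of *Mylk3* was not searched. In the *Perm1* window, chr4:156215677-156215976 on the plus strand, the capitals mark AAGGTCA, the core site of estrogen-related receptors, read on the opposite strand 202 to 196 bases before the start. In the *Sbk3* window, chr7:4970912-4971211 on the minus strand, the capitals mark CAGCTG, an E-box of the kind that myogenic factors bind, 231 to 226 bases before the start. In the *Myl4* window, chr11:104550413-104550712 on the plus strand, the capitals mark the 42 bases that lie between *Myl4* and *Cdc27*, a cell-cycle gene transcribed in the opposite direction.
Perm1: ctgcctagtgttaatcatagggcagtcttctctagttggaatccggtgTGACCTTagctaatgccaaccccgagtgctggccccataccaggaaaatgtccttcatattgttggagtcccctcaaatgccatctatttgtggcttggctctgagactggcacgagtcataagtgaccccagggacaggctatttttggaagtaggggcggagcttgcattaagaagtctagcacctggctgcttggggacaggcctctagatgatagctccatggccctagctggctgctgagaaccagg
Sbk3: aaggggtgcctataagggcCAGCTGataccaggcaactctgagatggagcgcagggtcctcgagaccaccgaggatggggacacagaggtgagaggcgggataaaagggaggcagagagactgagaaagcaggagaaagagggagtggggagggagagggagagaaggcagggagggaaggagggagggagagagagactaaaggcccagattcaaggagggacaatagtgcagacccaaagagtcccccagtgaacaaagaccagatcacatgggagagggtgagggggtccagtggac
Myl4: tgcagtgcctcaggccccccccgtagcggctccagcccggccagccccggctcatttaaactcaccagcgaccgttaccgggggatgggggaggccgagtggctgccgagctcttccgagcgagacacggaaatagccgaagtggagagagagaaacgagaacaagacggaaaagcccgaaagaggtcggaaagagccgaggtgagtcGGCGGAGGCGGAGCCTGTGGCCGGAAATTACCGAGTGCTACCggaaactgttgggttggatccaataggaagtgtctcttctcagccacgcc

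Both strands of all 32851 RefSeq windows were searched for 5 motifs. AAGGTCA was present in 4.718% of windows and, among the 5 windows of the 4 genes, in that of *Perm1*. CAGCTG was present in 16.3% of windows and, among these 5, in that of *Sbk3*. TATAAA (13.62% of windows), the MEF2 site (3.187%) and the CArG box (1.629%) had no match in the 5 windows. No motif was found in the windows of more than 1 of the 4 genes. A match is a run of letters and not a measured binding site.

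*Mylk3* (ENSMUSG00000031698) spans chr8:85324303-85386345 on the minus strand of GRCm38, as do all gene spans given here. Its TPM was 1.39, 1.75 and 0.850 in the 3 female WT libraries and 0.886, 1.13 and 1.52 in the 3 male WT libraries. In cKO hippocampus it was 2.98, 3.10 and 3.42 TPM in females and 3.17, 2.22 and 4.87 TPM in males. All 6 cKO libraries stood above the highest WT library, and the spread was widest among male cKO, where the lowest and the highest cKO values of the gene were found. Mean TPM was 1.26 ± 0.361 in WT and 3.29 ± 0.872 in cKO (SD, n = 6 each), a ratio of 2.62. On the log2(TPM + 0.1) scale the difference was 1.33 (SE 0.21), the greatest of the 4 genes.

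*Perm1* (ENSMUSG00000078486, chr4:156215868-156221307, plus strand) had the tightest values of the 4 genes. In WT it was 2.53, 2.89 and 2.60 TPM in females and 2.27, 3.06 and 2.91 TPM in males. In cKO it was 5.40, 4.71 and 4.50 TPM in females and 4.13, 4.77 and 4.80 TPM in males. The genotypes did not overlap in either sex, and female cKO 1 was the highest library. Means were 2.71 ± 0.293 TPM in WT and 4.72 ± 0.417 TPM in cKO, a ratio of 1.74 and a log2 difference of 0.78 (SE 0.10).

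*Sbk3* (ENSMUSG00000085272, chr7:4965260-4971168, minus strand) was 1.06, 1.12 and 1.07 TPM in female WT and 1.02, 2.25 and 1.25 TPM in male WT. It was 3.88, 2.71 and 3.26 TPM in female cKO and 2.31, 2.04 and 2.26 TPM in male cKO. Female cKO libraries all stood above both WT groups, whereas the male ranges overlapped, because male WT 2, at 2.25 TPM, stood above male cKO 2 and just below the other 2 male cKO libraries. The means were 1.29 ± 0.474 TPM in WT and 2.74 ± 0.702 TPM in cKO, a ratio of 2.12 and a log2 difference of 1.05 (SE 0.21). Without male WT 2 the WT mean was 1.10 ± 0.0912 TPM (n = 5) and the ratio 2.48.

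*Myl4* (ENSMUSG00000061086, chr11:104550663-104595753, plus strand) had the highest level of the 4 genes per transcript length. Its TPM was 3.89, 4.51 and 5.12 in female WT and 4.55, 4.03 and 4.40 in male WT. In cKO it was 9.33, 10.5 and 4.14 TPM in females and 5.88, 5.51 and 5.69 TPM in males. Female cKO 1 and 2 stood far above all the others, the 3 male cKO libraries stood slightly above WT, and female cKO 3 fell inside the WT range. The means were 4.42 ± 0.433 TPM in WT and 6.84 ± 2.48 TPM in cKO, a ratio of 1.55 and a log2 difference of 0.55 (SE 0.19). Without female cKO 1 and 2, the 4 remaining cKO libraries averaged 5.30 ± 0.790 TPM, and the log2 difference was 0.25.

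**Figure D1:**
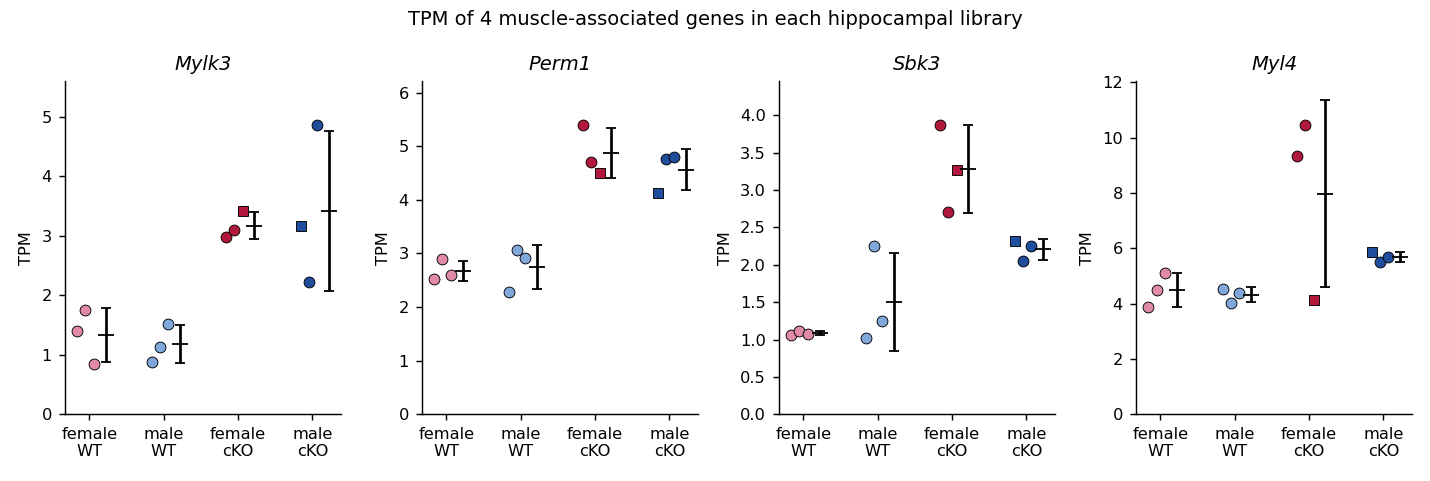
TPM of each gene (vertical axis, from 0) in the 12 libraries, grouped by sex and genotype. Points are libraries, squares are the 2 libraries whose Y-linked transcripts go against their label, and the black mark with bars is the mean ± SD of 3 libraries. *Mylk3* and *Perm1* separate the genotypes fully, 1 male WT library of *Sbk3* reaches the male cKO values, and 2 female cKO libraries of *Myl4* stand above all the others.

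Across all 18197 genes, 0.148% passed the limma test between cKO and WT in either direction (adjusted p under 0.05 and fold over 1.2) and 0.137% passed as higher in cKO. In 0.572% of genes every cKO library stood above every WT library. Of the 4 muscle-associated genes, *Mylk3* and *Perm1* met both conditions, and *Sbk3* and *Myl4* met neither, each with 5 of 6 cKO libraries above the highest WT library. These counts restate the choice of the genes. Among the 9 CMV-named libraries alone, log2 differences were 1.40 for *Mylk3*, 0.77 for *Perm1*, 0.86 for *Sbk3* and 0.58 for *Myl4*. The median log2 difference over all genes tested was 0.016, 55.8% of genes had a value above 0, and 6.64% had an unadjusted p under 0.05. In bulk tissue, a higher level per cell and more cells that carry a transcript cannot be told apart.

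Group means were ordered by level, as a description. *Mylk3* means ran from male WT (1.18 TPM) and female WT (1.33 TPM), which overlapped, to female cKO (3.17 TPM) and male cKO (3.42 TPM), which overlapped in turn. *Perm1* had the same division, with female WT at 2.67, male WT at 2.75, male cKO at 4.56 and female cKO at 4.87 TPM. *Sbk3* followed another order: female WT (1.08 TPM), male WT (1.51 TPM) and male cKO (2.20 TPM) each overlapped the next, and female cKO (3.28 TPM) did not overlap male cKO. For *Myl4*, male WT (4.33 TPM) and female WT (4.51 TPM) overlapped, male cKO (5.69 TPM) lay above them, and female cKO (7.98 TPM) ranged across both.

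Whether the genotype difference itself varied with sex was tested by the interaction term of a 4-group limma fit, which the choice of genes did not use. Only the female WT libraries are C57-named, so this term cannot be told apart from a difference of prefix among WT libraries. The female difference minus the male difference was 0.91 for *Sbk3* (SE 0.37), 0.32 for *Myl4* (SE 0.39), 0.12 for *Perm1* (SE 0.22) and −0.18 for *Mylk3* (SE 0.45) on the log2 scale. *Sbk3* had an unadjusted p of 0.0324 and an adjusted p of 0.966 in limma, so its wider separation in females did not pass. Adjusted p was 0.966 for *Myl4*, 0.981 for *Perm1* and 0.990 for *Mylk3*. Over all genes the interaction passed in 0% (0 of 18197 in limma, with 770 genes at an unadjusted p under 0.05). Without the 2 libraries of conflicting sex the term was 0.94 for *Sbk3* (limma adjusted p = 0.603), 0.11 for *Perm1* (0.922) and −0.25 for *Mylk3* (0.917). For *Myl4* it was then 0.76 (SE 0.21), with an unadjusted p of 0.00522 and an adjusted p of 0.344 in limma. The *Myl4* term moved with single female cKO libraries, from 0.077 without female cKO 2 to 0.74 without female cKO 3 (unadjusted p = 0.00314, adjusted p = 0.384 in limma).

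None of the 4 genes passed between WT sexes. Male WT minus female WT was 0.37 (SE 0.26) for *Sbk3*, −0.14 (SE 0.32) for *Mylk3*, −0.05 (SE 0.28) for *Myl4* and 0.03 (SE 0.16) for *Perm1* on the log2 scale, each with an adjusted p of 1 in limma. The share of all genes that passed was 0% (0 of 18197 in limma, with 660 at an unadjusted p under 0.05). The *Sbk3* value was 0.055 without male WT 2 and 0.59 without male WT 1 (unadjusted p = 0.0475, adjusted p = 1 in limma).

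Close relatives of the 4 genes were compared with them, since relatives share function and in part sequence. *Mylk*, the kinase of smooth muscle and non-muscle myosin, was 4.10 ± 0.774 TPM in WT and 4.08 ± 0.603 TPM in cKO, above *Mylk3* in both genotypes (log2 difference −0.0016, SE 0.14, limma adjusted p = 0.999). *Mylk4* was 0.304 TPM in WT and 0.262 TPM in cKO (limma adjusted p = 0.966), and *Mylk2*, the skeletal muscle kinase, was too low to test. *Sbk1*, the brain member of its kinase family, stood at 36.1 and 35.1 TPM (log2 difference −0.04, limma adjusted p = 0.969). *Sbk2*, which lies 853 bases from *Sbk3*, averaged 0.0689 TPM over all libraries and was not tested.

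Of 11 other myosin light chain genes, 10 could be tested and 0 passed (smallest limma adjusted p 0.947, 0 at an unadjusted p under 0.05). Their log2 differences ran from −0.39 for *Myl2*, the ventricular regulatory chain, to 0.36 for *Mylpf*, the fast skeletal one. The non-muscle chains *Myl6* (452 TPM in WT, 468 TPM in cKO) and *Myl12b* (324 and 327 TPM) made up most of the light chain transcript. *Myl7*, the regulatory chain that accompanies *Myl4* in the atrium, was 0.198 TPM in WT and 0.197 TPM in cKO, and *Myl3*, the ventricular essential chain, was 0.229 and 0.261 TPM. *Myl1*, the essential chain of fast skeletal muscle, was 1.42 and 1.51 TPM. *Myl4*, at 4.42 TPM in WT, stood above *Myl1*, *Myl2*, *Myl3*, *Myl7* and *Mylpf*.

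The wider contractile and muscle programs were read from 10 lists holding 128 genes besides these 4. Of the 108 that could be tested, 0 passed in limma in either direction (8 at an unadjusted p under 0.05, smallest adjusted p 0.486), 65 had a value above 0, and the median log2 difference was 0.04, against 0.016 over all genes. These counts are 7.41% and 60.2% of the genes tested, against 6.64% and 55.8% of all genes. No gene of these lists separated the genotypes fully, against 0.572% of all genes. A mean below 1 TPM was found for 59 of the 128.

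By role, the median log2 difference was 0.14 over 14 thin filament and troponin genes, 0.07 over 18 sarcomere scaffold genes, 0.05 over 9 myosin heavy chains, −0.06 over 14 calcium-handling genes, 0.02 over 12 metabolic genes and 0.07 over 16 muscle transcription factors. None of the genes named next passed. *Actn2*, the Z-disc actinin that neurons also use at dendritic spines, was 133 TPM in both genotypes, and *Tpm1*, a tropomyosin, was 164 and 180 TPM (log2 difference 0.13, limma adjusted p = 0.855). *Myh7b*, the most abundant of the heavy chains, was 7.32 and 6.50 TPM (log2 difference −0.24, limma adjusted p = 0.917), and *Myh7*, the slow cardiac heavy chain, was 4.04 and 4.03 TPM. *Asph* and *Atp2a2*, the most abundant calcium-handling genes, had log2 differences of 0.03 and −0.22 (limma adjusted p = 0.971 and 0.855). *Mef2d* and *Mef2a*, transcription factors of muscle and neurons, had log2 differences of 0.10 and −0.05.

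The 8 genes at an unadjusted p under 0.05 are given here, apart from *Ppargc1b* and *Ppard*, which follow in the next paragraph. Those given here were named after their values were seen. *Atp2a1*, the calcium pump of fast muscle, was 0.0537 to 0.659 TPM in WT and 0.239 to 2.21 TPM in cKO, with a log2 difference of 1.46 (SE 0.46, limma adjusted p = 0.486). *Mb*, which encodes myoglobin, had a difference of 0.98 (limma adjusted p = 0.664) and *Tnnt1*, the slow skeletal troponin T, of 0.80 (limma adjusted p = 0.746). *Acta1* and *Neb* had differences of 0.28 and 0.39 (limma adjusted p = 0.628 and 0.674). *Jph1*, a junctophilin that ties muscle membranes together, was the only one of the 8 below 0, with a difference of −0.27 (limma adjusted p = 0.694). Their groups overlapped, and none passed.

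*Perm1* has a known regulatory circuit, and 13 other genes of it were measured. Of these, 0 passed in limma (2 at an unadjusted p under 0.05, smallest adjusted p 0.627), and 9 had a value above 0, with a median of 0.08. These are 15.4% and 69.2% of the 13, against 6.64% and 55.8% of all genes. The 2 at an unadjusted p under 0.05 were *Ppargc1b*, at 5.30 ± 0.542 TPM in WT and 6.18 ± 0.736 TPM in cKO (log2 difference 0.22, SE 0.10, limma adjusted p = 0.746), and *Ppard*, a nuclear receptor of fatty acid metabolism (log2 difference 0.25, SE 0.09, limma adjusted p = 0.627). *Ppargc1a*, which like *Ppargc1b* induces *Perm1* in muscle, was 17.4 ± 0.881 TPM in WT and 17.4 ± 1.61 TPM in cKO. *Esrra*, the estrogen-related receptor alpha, was 16.7 ± 2.78 and 21.2 ± 7.92 TPM, with a log2 difference of 0.28 (SE 0.21, limma adjusted p = 0.888). *Ppargc1a*, *Ppargc1b* and *Esrra* are named for their place upstream of *Perm1*, and *Ppard* after its values were seen. *Sirt3* and *Tfam*, mitochondrial genes and the most abundant of the list, had log2 differences of 0.08 and 0.02.

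**Figure D2:**
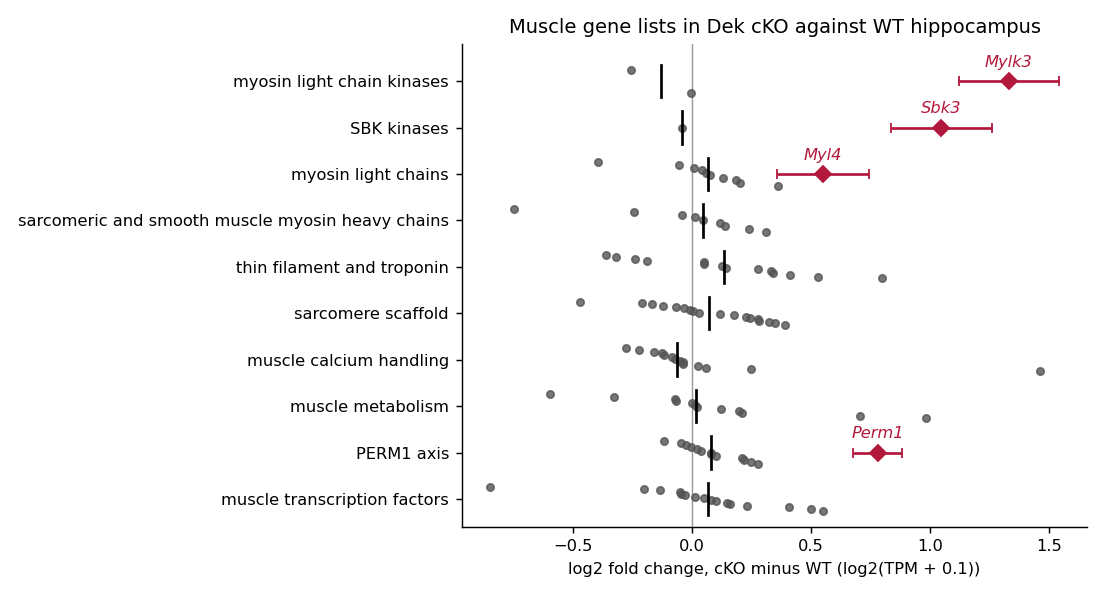
Log2 difference between cKO and WT (horizontal axis, log2(TPM + 0.1) scale) of every tested gene in 10 muscle gene lists, with 1 grey point per gene and a black line at the list's median. Red diamonds are the 4 muscle-associated genes, each beside its own family or pathway, with bars of ± 1 SE. Among the grey points only *Atp2a1*, at 1.46, exceeds *Mylk3*, and list medians lie between −0.13 and 0.14.

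Marker genes of muscle and of other cells were summed per library to show whether such tissue moved with the 4 genes. The 12 cardiac markers summed to 42.4 to 53.7 TPM in WT and 44.1 to 52.4 TPM in cKO, and the 16 skeletal markers to 72.0 to 88.8 and 70.3 to 121 TPM. Most of the skeletal sum came from *Pvalb* (55.6 TPM in WT and 56.8 TPM in cKO), which inhibitory neurons also express. The 15 markers of smooth muscle and pericytes summed to 132 to 213 TPM in WT and 157 to 206 TPM in cKO. Log2 differences were above 0 for 7 of 12 cardiac, 12 of 16 skeletal and 10 of 15 smooth muscle and pericyte markers, against 55.8% of all genes. Their medians were 0.17, 0.26 and 0.08 in that order, against 0.016 over all genes. In none of these 3 lists did a gene pass in limma. An unadjusted p under 0.05 in limma was found for 1 cardiac, 3 skeletal and 1 smooth muscle or pericyte marker. Over all genes that share was 6.64%. Choroid plexus markers varied most, from 88.2 to 3094 TPM in WT and from 61.3 to 4524 TPM in cKO, and meningeal markers from 507 to 2376 and from 502 to 3343 TPM, with 0 of 10 passing in each list (0 at an unadjusted p under 0.05 in either).

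The 13 neocortex markers, a list written after the *Myl4* values were seen, had their highest sums in the same 2 libraries as *Myl4*. They summed to 384 TPM in female cKO 1 and 363 TPM in female cKO 2, against 249 to 310.4 TPM in the other 10 libraries. In 5 of the 13 (*Lamp5*, *Cux2*, *Rasgrf2*, *Cplx3* and *Hs3st2*) both libraries stood above all 10 others. Of 10 thalamus markers, 4 did so, while their sum, 129 and 142 TPM, lay inside the range of the others, 99.2 to 145 TPM. Of 10 hippocampal neuron markers, 0 did so, and their sums were 1328 and 1277 TPM against 1194 to 1612 TPM. The share of all genes in which both libraries stood above the other 10 was not computed, so nothing is read from these counts. *Etv1* and *Rprm*, the most abundant of the 13 neocortex markers, were not among the 5. Their log2 differences between cKO and WT were −0.17 and 0.80 (limma adjusted p = 0.805 and 0.312). Such differences were above 0 for 10 of 13 neocortex and 10 of 10 thalamus markers, against 55.8% of all genes. The list medians were 0.02 and 0.17, against 0.016 over all genes. In neither list did a gene pass in limma, with 1 neocortex and 0 thalamus markers at an unadjusted p under 0.05. *Perm1*, at 5.40 TPM, and *Sbk3*, at 3.88 TPM, were also highest in female cKO 1. The part of tissue composition in these results was not tested. Without these 2 libraries the log2 differences of *Mylk3*, *Perm1* and *Sbk3* were 1.37, 0.73 and 0.91.

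**Figure D3:**
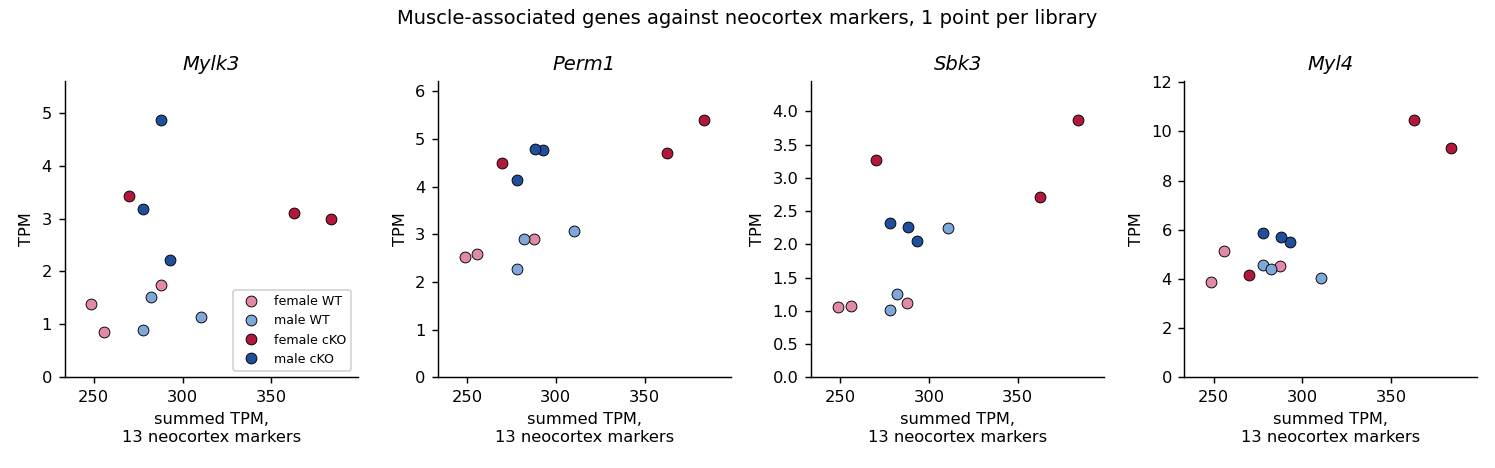
TPM of each gene (vertical axis, from 0) against the summed TPM of 13 neocortex markers (horizontal axis), with 1 point per library. Female cKO 1 and 2, at 384 and 363 TPM on the horizontal axis, hold the 2 highest *Myl4* values. Female cKO 1 also holds the highest *Perm1* and *Sbk3* values, and the *Mylk3* values of both lie amid those of the other cKO libraries.

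Genes beside each of the 4 were read to see whether the differences extended along the chromosome. Up to 3 tested genes on each side gave 22 neighbors, of which 0 passed in limma (2 at an unadjusted p under 0.05, smallest adjusted p 0.328) and 16 had a value above 0, with a median of 0.08. These are 9.09% and 72.7% of the 22, against 6.64% and 55.8% of all genes. *Orc6* and *Vps35*, the nearest genes on 1 side of *Mylk3*, had log2 differences of 0.13 and −0.02, and its 6 neighbors lay between −0.02 and 0.13. *Cdc27*, which starts 42 bases from *Myl4* in the opposite direction, was 25.0 ± 0.676 TPM in WT and 24.5 ± 2.14 TPM in cKO (log2 difference −0.04, SE 0.06, limma adjusted p = 0.961). The neighbors of *Myl4* lay as far as 530671 bases from it. *Efcab3*, 467838 bases from *Myl4*, was 0.270 ± 0.247 TPM in WT and 0.454 ± 0.257 TPM in cKO (log2 difference 0.67, SE 0.53, limma adjusted p = 0.898).

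Of the neighbors, 3 of 4 beside *Perm1*, 5 of 6 beside *Sbk3*, 5 of 6 beside *Mylk3* and 3 of 6 beside *Myl4* had a value above 0. The greatest beside *Perm1* and *Sbk3* are given here. *Isg15*, an interferon-induced ubiquitin-like modifier 15049 bases from *Perm1*, was 3.44 to 6.05 TPM in WT and 6.26 to 7.54 TPM in cKO, so that the genotypes did not overlap (log2 difference 0.45, SE 0.13, limma adjusted p = 0.346). *Plekhn1*, which lies 148 bases from *Perm1* on the opposite strand, was 0 to 1.79 TPM in WT and 0.480 to 1.58 TPM in cKO (log2 difference 1.26, SE 0.69, limma adjusted p = 0.816). It was listed at 0 TPM in 2 female WT libraries. The *Plekhn1* difference was 0.40 with a pseudocount of 1 TPM and 0.044 among CMV-named libraries only. *Ssc5d*, a secreted scavenger receptor gene 20433 bases from *Sbk3*, was 0.948 to 1.64 TPM in WT and 1.49 to 2.34 TPM in cKO (log2 difference 0.62, SE 0.17, limma adjusted p = 0.328), with 5 of 6 cKO libraries above the highest WT library. None of the 3 passed.

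Annotated genes also overlap 2 of the 4. *AA672651* lies antisense within *Mylk3*, and *Gm11665* and *Gm22000* lie antisense within *Myl4*, and none of them was analysed here. Whether strand was used in quantification is not given in the sources used here, so sense and antisense reads at *Mylk3* and *Myl4* may not be separated. *Gm11661* and *Gm11663*, which also lie within *Myl4*, averaged 0.0242 and 0 TPM in WT and 0 and 0.184 TPM in cKO.

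**Figure D4:**
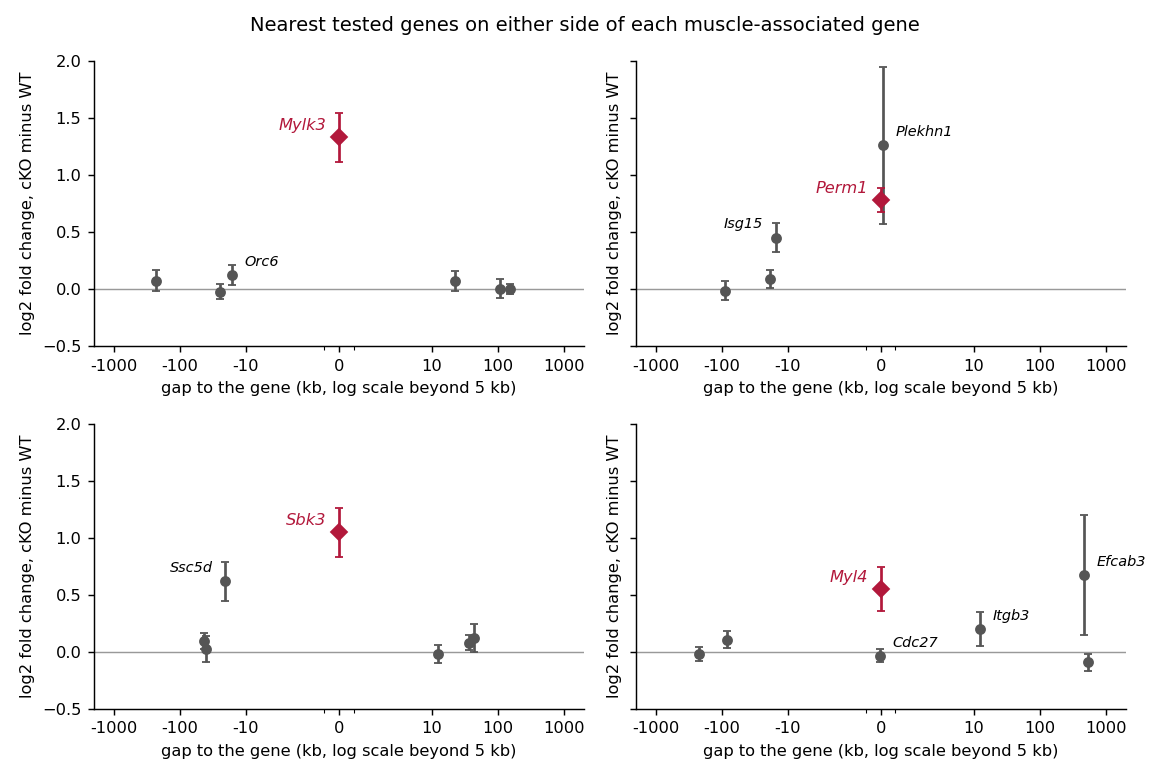
Log2 difference between cKO and WT (vertical axis, ± SE) of the nearest tested genes against their gap to each muscle-associated gene in kilobases (horizontal axis, negative toward lower coordinates, linear to 5 kb and logarithmic beyond). Red diamonds are the 4 genes and grey points are 22 neighbors. The neighbors of *Mylk3* stay within −0.02 to 0.13, and *Plekhn1* beside *Perm1* has the widest error, 0.69.

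The 4 genes were then compared with each other across libraries within a genotype (n = 6, 12 relations, exact permutation tests over all pairings). Pearson's r ran from −0.456 to 0.709, and 4 of 6 relations were positive in cKO and 3 of 6 in WT. No Pearson relation passed, with a smallest exact permutation p of 0.0958 (adjusted 0.811). In WT, *Perm1* and *Sbk3* ranked the 6 libraries identically (Spearman's rho 1, exact permutation p = 0.00278, the smallest that 6 libraries allow, adjusted 0.0333), while Pearson's r was 0.709 and became 0.799 without the 2 libraries farthest from the median of *Perm1*. In cKO the same pair had a rho of 0.0857 (exact permutation p = 0.919, adjusted 1). Its Pearson's r in cKO was 0.509 (exact permutation p = 0.321, adjusted 0.811) and became −0.908 without the 2 libraries farthest from the median of *Perm1*. Each sex holds 3 libraries of a genotype, too few for a value within sex. The difference between the genotypes in this relation was not tested.

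Genes whose pattern was most like each of the 4 were found by Pearson's r of log2(TPM + 0.1) over the 12 libraries after the mean of each genotype was subtracted, as a description. *Mylk3* was most like *Fam163b* (r = 0.917), *Glis2* (0.910) and *Ubl4a* (0.897), and *Perm1* was most like *Rimklb* (0.917), *Wsb1* (0.899) and *Iqcb1* (0.882). *Sbk3* was most like *Rps15-ps2* (0.946), a pseudogene with a mean of only 0.114 TPM, then *Phka2* (0.895) and *Tia1* (0.893). *Myl4* was most like *Stard4* (0.960), *Tmem65* (0.949) and *Flrt1* (0.948). The number of genes with r over 0.8 was 214 for *Myl4*, against 55, 33 and 28 for *Mylk3*, *Perm1* and *Sbk3*, and *Myl4* deviated most in the 3 female cKO libraries, above the cKO mean in female cKO 1 and 2 and below it in female cKO 3, a library of conflicting sex. None of the 12 named genes passed between genotypes (limma adjusted p 0.584 or more), and none was shared between the lists of the 4.

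**Figure D5:**
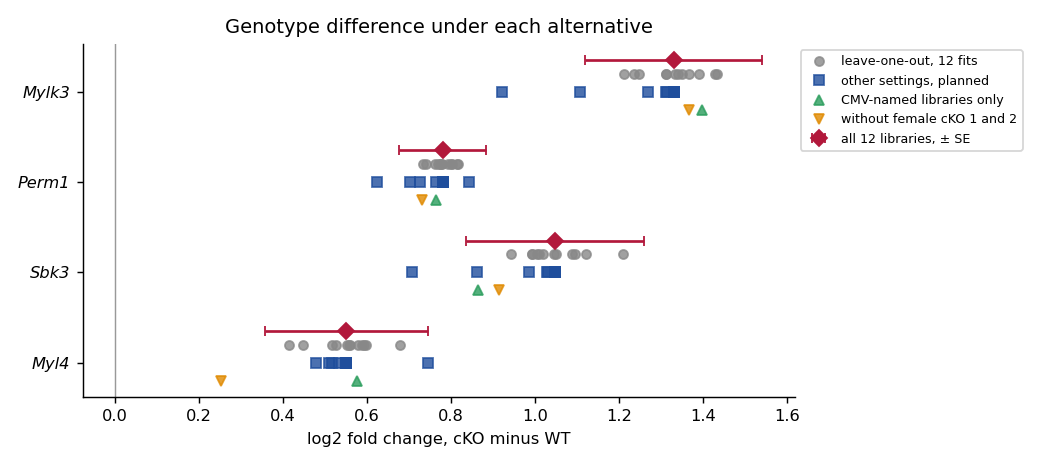
Log2 difference between cKO and WT (horizontal axis) of each gene under each alternative, where red diamonds with ± SE are the values from all 12 libraries, grey circles leave out 1 library each, blue squares are the other planned settings, green triangles use the CMV-named libraries alone and orange triangles leave out female cKO 1 and 2. Values are above 0 under each alternative shown, and *Myl4* reaches its lowest, 0.25, without those 2 female libraries.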

How the data were processed

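RNA was extracted from microdissected hippocampus of 12 mice and sequenced as stranded libraries. The authors deposited 1 table of TPM, so its values are relative to library size and transcript length. The labels name kallisto and mm10, whereas the methods of the study describe STAR and Salmon, and which of them wrote the table is not given in the sources used here. Gene symbols and spans came from GENCODE M21 (25245 of 26409 genes matched).

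The deposited TPM values were taken to log2(TPM + 0.1), genes averaging under 0.1 TPM were left out, and the rest entered limma 3.58.1 (under R 4.3.3) with a trended prior variance, two-sided tests and Benjamini-Hochberg adjustment over all 18197 genes. Passing needed both an adjusted p under 0.05 and a fold over 1.2. Genotypes were compared as 6 against 6 libraries, and sexes and the interaction in 1 fit of 4 groups. The script was tested on simulated data.

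The 4 genes and all lists were chosen with earlier results of these data known, and the neocortex and thalamus lists after the *Myl4* values were seen. A marker gene is not reported here and is left out of its list. Named genes were drawn from the 4, *Dek*, their relatives, up to 3 tested neighbors on each side and overlapping genes, the 2 most abundant genes of other lists, any list gene that passed, and the 3 genes most like each of the 4. Not every neighbor and not every abundant list gene is named. Genes outside this are stated as such. The alternatives were other pseudocounts, filters, quantile normalization, a replicate block, subsets of libraries and each library left out. TPM is no count, so no count model was run.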

Additional observations from a re-analysis of the deposited data

Results flagged for a closer look

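*Sbk3* stood at 2.25 TPM in male WT 2, whereas the other 5 WT libraries lay between 1.02 and 1.25 TPM, so that the gap to the nearest WT library took up 0.806 of the whole WT range, above Dixon's critical value at 95% for 6 libraries. The 4 genes were examined in both genotypes, 8 groups in all, and chance marks about 1 group in 20.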

How the results depend on the processing

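Log2 differences of the 4 genes between cKO and WT stayed above 0 under every alternative run. With a pseudocount of 1 TPM they were 0.92 for *Mylk3* and 0.62 for *Perm1*, since a greater pseudocount shrinks low genes. Across the fits that left out 1 library they ran from 1.21 to 1.43 for *Mylk3*, 0.73 to 0.82 for *Perm1*, 0.94 to 1.21 for *Sbk3* and 0.41 to 0.68 for *Myl4*.

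The number of all genes passing limma, 27 with 12 libraries, was 13 without the filter on low values, 8 with CMV-named libraries only, 16 without both libraries of conflicting sex and 6 without female cKO 1 and 2 (an alternative chosen after seeing the data). Of the 4 genes, 2 passed with 12 libraries, and under these alternatives 1 (*Perm1*), 0, 1 (*Perm1*) and 0 passed, in that order. Leaving out 1 library gave 13 to 27 genes and 1 to 2 of the 4, with 15 genes without female cKO 1, 13 without female cKO 2 and 17 without male cKO 1. *Mylk3* lost its call without female WT 3, male WT 1, male WT 2, any of the 3 female cKO libraries or male cKO 1, and *Sbk3* passed without male WT 2. The 4 genes were chosen on this comparison, so nothing is read from these calls. With fewer libraries the tests hold less information. For the other losses the cause was not tested.

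With the replicate block, 3 genes and 0 of the 4 passed. Same-numbered libraries did not deviate together across all genes (correlations of −0.0385 to 0.0445 across 18197 genes). Whether they share more than a number is not given in the sources used here, and these correlations cannot decide it. No gene of the muscle lists and no neighbor passed under any alternative (0 in limma). The marker lists were not counted under the alternatives.

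Values near 0 changed sign. *Mylk* was 0.12 with CMV-named libraries only and 0.10 without female cKO 1 and 2, and −0.070 to 0.071 with 1 library left out. Male WT minus female WT for *Myl4* was 0.016 after quantile normalization, and with 1 library left out it ran from −0.15 to 0.044 for *Myl4*, −0.41 to 0.075 for *Mylk3* −0.051 to 0.16 for *Perm1* and 0.055 to 0.59 for *Sbk3*. The interaction ran from −0.44 to 0.11 for *Mylk3*, 0.040 to 0.25 for *Perm1*, 0.59 to 1.13 for *Sbk3* and 0.077 to 0.74 for *Myl4*, and that of *Myl4* was −0.50 without female cKO 1 and 2. The interaction and the WT sex difference passed for none of the 4 genes under any alternative run.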
